A study of Mus musculus with 24 samples.

Results

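The genes examined were 10 mast cell and basophil genes, Fcer1a, Ms4a2, Fcer1g, Gata2, Hdc, Cpa3, Mcpt8, Prss34, Cma1 and Tpsb2, among 20868 genes read by SLAM-seq in preleukemic mouse cells. They were chosen by name from the list of lineage genes, with the knowledge that Cpa3 is read in one genotype and not in the other. The difference in abundance between genotypes is therefore a description for them. They were part of the fit over all genes, and which of them it called is given below as a count only. SLAM-seq reads the decay of RNA: 4-thiouridine (4SU) taken up into new RNA is alkylated and then sequenced as a T-to-C conversion, so that conversions fade once the label is washed out. The cells were c-Kit+ fetal liver progenitors transformed with retroviral Meis1 and Hoxa9 and grown in stem cell factor (SCF, 40 ng/mL), IL-3 (20 ng/mL) and IL-6 (20 ng/mL). Per the study's methods, both genotypes carried floxed Tut4 and Tut7 alleles (Tut4 fl/fl; Tut7 fl/fl), and the double conditional knockout (cDKO) also carried Vav-iCre, which is active in blood cells from early in development, while the control lacked it. Cells were exposed for 12 h to 2.9 µM 4SU before a chase of 0, 60, 180 or 540 min, with 3 replicates of each of the 8 groups and 24 libraries in all. The methods call the replicates biological, but how a replicate number maps to an embryo or a transduction is not given in the sources used here.

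Mast cells and basophils are granulocytes that bind IgE through the receptor FcεRI and release stored histamine, proteases and proteoglycan when it is crosslinked. The receptor is built from the IgE-binding alpha chain (Fcer1a), the signal-amplifying beta chain (Ms4a2) and the shared signalling gamma chain (Fcer1g), and the transcription factor GATA2 is needed for both lineages. Histidine decarboxylase (Hdc) makes histamine, carboxypeptidase A3 (Cpa3), chymase (Cma1) and the tryptase Tpsb2 are mast cell granule proteases, and Mcpt8 and Prss34 are proteases of mouse basophils.

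GATA factors bind letters such as GATAA, and the promoters of the members were searched for GATAA only, not for variants of it. RefSeq promoter sequence (build GRCm38.p6) was found for 9 of the 10 members, from 10 annotated starts, and the 250 bases before each start were read. Those of Cpa3, Prss34, Ms4a2 and Hdc are shown because Cpa3, Prss34 and Hdc were read mainly in cDKO cells, while Ms4a2, with the most matches, had overlapping levels in the genotypes. They are written 5′ to 3′ on the strand of the gene, with GATAA or its reverse complement in capitals.
Cpa3 (chr3:20242182-20242431, minus strand): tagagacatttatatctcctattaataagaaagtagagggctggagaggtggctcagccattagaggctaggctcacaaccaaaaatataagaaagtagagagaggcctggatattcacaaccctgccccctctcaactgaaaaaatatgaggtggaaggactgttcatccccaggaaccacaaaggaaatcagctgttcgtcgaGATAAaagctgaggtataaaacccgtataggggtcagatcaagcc
Prss34 (chr17:25298144-25298393, plus strand): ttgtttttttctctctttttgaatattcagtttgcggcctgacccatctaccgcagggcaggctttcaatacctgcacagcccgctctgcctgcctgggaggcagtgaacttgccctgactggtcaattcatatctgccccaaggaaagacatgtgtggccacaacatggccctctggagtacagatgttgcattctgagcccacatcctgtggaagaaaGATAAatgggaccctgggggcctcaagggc
Ms4a2 (chr19:11623720-11623969, minus strand): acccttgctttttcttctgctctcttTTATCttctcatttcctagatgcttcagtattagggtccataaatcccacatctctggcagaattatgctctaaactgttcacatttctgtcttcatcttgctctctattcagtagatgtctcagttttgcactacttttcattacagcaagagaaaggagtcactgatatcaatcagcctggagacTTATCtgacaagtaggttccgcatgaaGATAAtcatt
Hdc (chr2:126618679-126618928, minus strand): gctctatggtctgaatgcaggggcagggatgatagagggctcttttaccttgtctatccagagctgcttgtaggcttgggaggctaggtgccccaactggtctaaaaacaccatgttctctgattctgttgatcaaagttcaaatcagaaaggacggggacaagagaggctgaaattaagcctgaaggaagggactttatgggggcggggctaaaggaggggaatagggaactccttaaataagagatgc
The match in Cpa3 began 45 bases and that in Prss34 30 bases before the start. The 3 matches in Ms4a2 began 224, 37 and 10 bases before it, and Hdc held no GATAA on either strand. On either strand, GATAA lay in the window of 5 of the 9 members (Cma1, Cpa3, Fcer1a, Ms4a2 and Prss34) and of 22.6% of all 32851 mouse promoters. The E-box letters CANNTG lay in the window of 7 members and of 66.2% of all promoters, and the RUNX letters TGTGGT in 3 members and 14.05%. Matches of different motifs were counted separately, also where they overlapped. Genes with a GATAA match were found both among those read in cDKO cells only (Cpa3 and Prss34) and among those with overlapping levels (Ms4a2) or with no read in either genotype (Cma1 and Fcer1a).

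The libraries held 4380238 to 7041311 reads within 3′UTRs, and levels are given as CPM, the reads of a gene scaled to those totals. As a check of the labels, Tut4 had 83.8 ± 5.05 CPM in control and 29.1 ± 2.96 in cDKO (SD, n = 3 replicates, chase times summed), a log2 change of -1.53 ± 0.09 (SE, adjusted p = 8.79e-05, edgeR quasi-likelihood test). Tut7 had 50.6 ± 0.554 and 23.7 ± 2.20 CPM, a log2 change of -1.10 ± 0.08 (adjusted p = 1.86e-04, edgeR). The reads come from the 3′ end, and which exons the alleles lose is not given in the sources used here, so the reads that remain do not measure how complete the deletion was. Library-wide, 1.62 to 1.67% of T positions were read as C in control at 0 min, against 0.845, 0.821 and 0.542% in the cDKO libraries in falling order, the lowest being replicate 3, which was also the lowest at the later times. Hoxa9 was read in both genotypes (2403 ± 58.2 CPM in control and 4460 ± 615 in cDKO), and so was Kit, the SCF receptor of progenitors and mast cells (73.8 ± 6.18 and 48.7 ± 8.14 CPM). The 3′UTR of Meis1 had 0 reads in control and 107 in cDKO. Whether the retroviral transcripts of Hoxa9 and Meis1 carry the 3′UTRs of these genes is not given in the sources used here.

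Of the 10 genes, 7 had at least 1 read and 3 had none. In the comparison of genotypes with chase times summed, 6 passed the filter on low counts, and 3 of these (Cpa3, Hdc and Gata2) were called higher in cDKO and 0 lower. Over all 11204 genes tested, 30.6% were called, 14.9% higher and 15.7% lower, and nothing is read from the members' count, since they were chosen on this contrast. In bulk RNA, more cells of a type and more RNA per cell cannot be told apart.

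Of the receptor subunits, 2 could be tested and neither was called. Fcer1a, whose chain binds IgE, had 0 reads in all 24 libraries, over its interval on chr1 (173221271 to 173221489, minus strand, 3′UTR, mm10), which allows a level of up to 0.0232 CPM from 3 counts over all libraries. This limit, like the others below, covers counting error only, since the libraries carry no molecular identifiers. Ms4a2 (chr19, 11615520 to 11617472, minus strand, 3′UTR) was read at a low level in each library, from 3.41 to 11.3 CPM in control with a median of 6.17, and from 3.27 to 10.2 CPM in cDKO with a median of 5.98. Its genotypes overlapped, with 6.70 ± 1.94 CPM in control and 6.01 ± 0.196 in cDKO (SD, n = 3, chase times summed). Fcer1g (chr1, 171229572 to 171229864, minus strand, 3′UTR), which many myeloid cells also use with other Fc receptors, was read in each library at 532 to 734 CPM in control (median 587) and at 579.9 to 1037 CPM in cDKO (median 689.8). Summed over the chase, its replicates had 581, 599 and 649.1 CPM in control and 649.0, 657 and 977 in cDKO. The replicates of the genotypes overlapped narrowly (649.1 in control and 649.0 in cDKO), with replicate 3 of cDKO apart from the rest.

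Gata2 (chr6, 88205495 to 88207032, plus strand, 3′UTR) had no overlap between genotypes in any of the 24 libraries. In control it had 4.07, 1.88 and 5.92 CPM at 0 min for replicates 1, 2 and 3, and in cDKO 83.8, 74.1 and 153.6. At 540 min the values were 6.83, 2.68 and 8.10 CPM in control and 67.5, 63.7 and 99.2 in cDKO. Over all chase times the range was 1.88 to 8.10 CPM in control and 63.7 to 153.6 in cDKO. Summed over the chase, the replicates had 5.92, 3.54 and 7.07 CPM in control and 75.9, 81.3 and 128 in cDKO, a ratio of means of 17.3 and a log2 change of 4.10 ± 0.30 (SE). Replicate 3 was the highest cDKO replicate at each of the 4 times.

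Hdc (chr2, 126593659 to 126593960, minus strand, 3′UTR) also had no overlap between genotypes, and varied most among the cDKO replicates. In control it had 0 to 10 reads in a library (0 to 1.64 CPM, median 0.560), 51 reads in all. In cDKO it had 48.9, 15.7 and 75.2 CPM at 0 min for replicates 1, 2 and 3, then 38.4, 13.99 and 84.7 at 60 min, 43.1, 14.4 and 78.4 at 180 min and 32.9, 14.7 and 86.4 at 540 min. Replicate 3 was the highest and replicate 2 the lowest at all 4 times, with a ratio of highest to lowest of 4.79 to 6.06. The same ratio was 1.27 to 1.62 for Cpa3, 1.56 to 2.07 for Gata2 and 1.33 to 1.67 for Fcer1g. Summed over the chase, Hdc had 0.740 ± 0.320 CPM in control and 45.5 ± 33.6 in cDKO, a log2 change of 5.91 ± 0.74 (SE).

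Among the granule proteases, Cpa3 (chr3, 20215616 to 20215804, minus strand, 3′UTR) was read in cDKO cells only. It had 0 reads in each of the 12 control libraries and 239 to 430 reads in each of the 12 cDKO libraries, 3830 in all. In cDKO it had 56.8, 57.7 and 72.1 CPM at 0 min, 52.2, 62.9 and 76.4 at 60 min, 49.8, 57.6 and 80.8 at 180 min and 47.3, 57.8 and 74.4 at 540 min. Replicate 3 was the highest at all 4 times, as for Gata2, Hdc and Fcer1g. Against 3 counts over the 12 control libraries together, which stand for a control level of up to 0.0444 CPM, the cDKO level was at least 1403-fold higher. Only 1 read of Cpa3 was a multimapping read, and its interval overlapped that of no other gene in the tables.

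Of the basophil proteases, one was read in cDKO cells only and the other in both genotypes. Prss34 (chr17, 25300003 to 25300161, plus strand, 3′UTR) had 0 reads in control and 56 in cDKO, at 0 to 10 reads a library with a read in 11 of the 12, which is at least 20.5-fold higher against 3 counts over the control libraries. It did not pass the filter on low counts, and its replicates had 0.979, 0.423 and 1.35 CPM with chase times summed. Mcpt8 (chr14, 56082163 to 56082247, minus strand, 3′UTR) was read in every library, at 6.26 to 18.8 CPM in control (median 14.6) and 6.30 to 16.5 in cDKO (median 9.89). Summed over the chase it had 13.02 ± 1.84 CPM in control and 10.2 ± 0.425 in cDKO. On that scale its replicates did not overlap, at 11.0 to 14.6 CPM in control and 9.82 to 10.7 in cDKO. Its log2 change was -0.36 ± 0.14 (SE), and it was not called. The mast cell proteases Cma1 (chr14, 55941451 to 55941653, minus strand) and Tpsb2 (chr17, 25367847 to 25368092, plus strand) had 0 reads in all 24 libraries over their 3′UTRs, with the same limit of 0.0232 CPM.

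**Figure D1:**
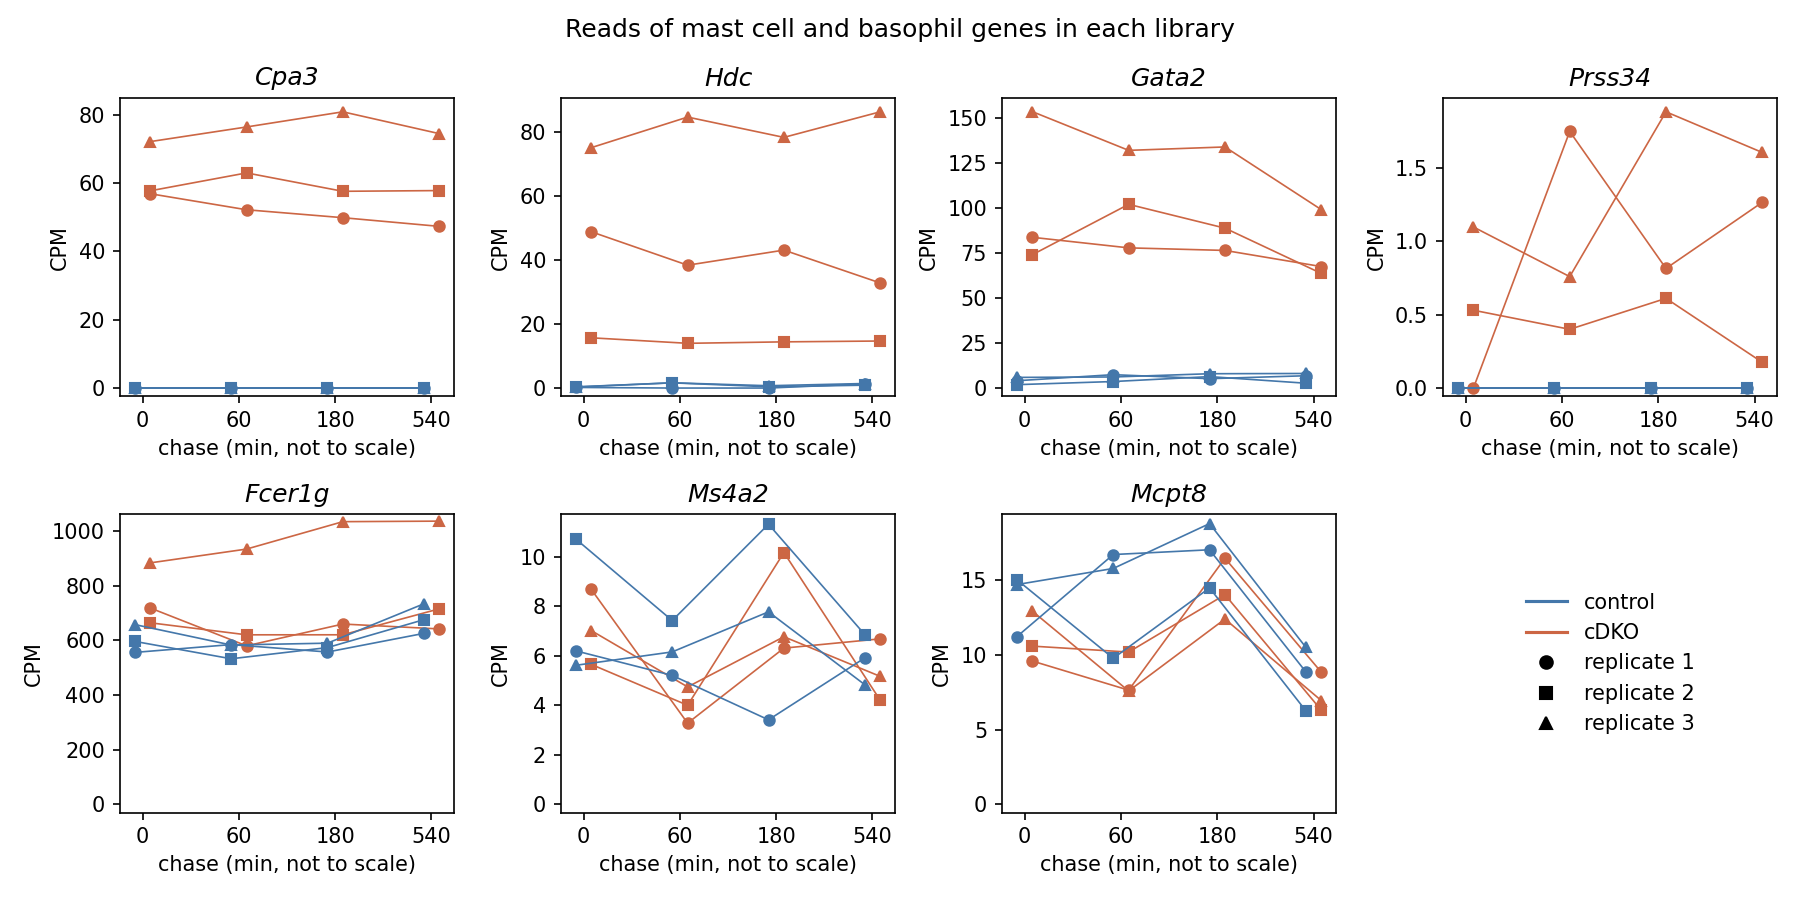
Level (CPM of reads in 3′UTRs, vertical axis) of the 7 genes with a read, by chase time (horizontal axis, categories), with 1 point per library, colour for genotype and lines joining libraries of the same replicate number. For Cpa3, Hdc and Gata2 all cDKO points lie above all control points, and Prss34 lies at 0 in every control library. The points of single libraries overlap between genotypes for Fcer1g, Ms4a2 and Mcpt8.

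Levels over the chase were then compared, which the choice of the genes did not use. In control, 4 members could be tested between 0 and 540 min and 0 were called, where 16.2% of all 10226 genes were. Mcpt8 came nearest, at 13.7 ± 2.11 CPM at 0 min and 8.54 ± 2.14 at 540 min (SD, n = 3), a log2 change of -0.71 ± 0.26 (SE, adjusted p = 0.0706, edgeR, 0.0567 to 0.365 over the alternatives). In cDKO, 6 members were tested and 0 called, against 0.117% of 10235 genes, and Mcpt8 had 11.0 ± 1.72 and 7.36 ± 1.32 CPM (log2 change -0.62 ± 0.27, adjusted p = 0.448, edgeR). Cpa3 in cDKO changed by a log2 of -0.09 ± 0.19 (adjusted p = 0.912), Hdc by -0.08 ± 0.67 (adjusted p = 0.985) and Gata2 by -0.46 ± 0.29 (adjusted p = 0.613). In cDKO, libraries with the same replicate number deviated together (correlations of 0.332 to 0.798), and with the replicate number as a block 128 genes were called in place of 12, but no member. The change over the chase was not shown to differ between genotypes for any of the 6 members tested, nor for any of the 10651 genes (0 called, 0%; 557 at an unadjusted p under 0.05, edgeR; 6 with DESeq2). Among the members, Hdc had an estimate of -2.01 ± 1.48 (log2, cDKO change minus control change, SE, adjusted p = 0.984, edgeR), from 5 control reads at 0 min, and Gata2 one of -0.96 ± 0.58 (adjusted p = 0.984). Cpa3, with no control reads, has no estimate that can be read. Since batch in the labels follows chase time, the effects of time and of batch cannot be told apart.

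Conversion was then followed. Fcer1g started below the library-wide rate and ended above it in both genotypes. In control its conversion rate, the percentage of covered T positions converted, was 1.21, 1.14 and 1.09% at 0 min for replicates 1, 2 and 3, and 0.487, 0.559 and 0.483% at 540 min. In cDKO the values were 0.581, 0.576 and 0.365% at 0 min and 0.297, 0.312 and 0.234% at 540 min. Divided by the library-wide rate, these were 0.698 ± 0.040 at 0 min and 1.62 ± 0.066 at 540 min in control, and 0.687 ± 0.018 and 1.501 ± 0.060 in cDKO (SD, n = 3), so that the genotypes lay close together on this scale while the rates themselves did not overlap. A single exponential gave a half-life of 602 min in control (507 to 726 over replicates) and 621 min in cDKO (514 to 709). In control the mean rate was 1.144, 1.143, 1.108 and 0.510% at 0, 60, 180 and 540 min, and in cDKO 0.507, 0.471, 0.409 and 0.281%. Nearly all of the fall in control came after 180 min, which a single exponential does not follow. The control half-life therefore rests on the 540 min libraries, and its range over replicates does not cover this. A median was taken over all genes with enough coverage and an SD of the 0 min rates under 0.3 of their mean. It was 204 min in control (7756 genes, quartiles 130 and 291 min) and 247 min in cDKO (4118 genes, quartiles 151 and 383 min). The gene sets differ, so these medians do not compare the genotypes. The difference in slope between genotypes was 0.04 ± 0.03 log2 per hour (cDKO minus control, SE, adjusted p = 0.501, edgeR, 0.239 to 1 over the alternatives).

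Gata2 lost its label quickly in both genotypes. In control it was read as C at 2.50, 1.21 and 1.73% at 0 min, from 248 to 926 T positions a library, and at 0% in all 3 libraries at 540 min, with 0 conversions in 2866 T positions. In cDKO it was read as C at 0.687, 0.804 and 0.634% at 0 min, at 0.252, 0.149 and 0.145% at 180 min and at 0.0618, 0.0337 and 0.0397% at 540 min. The last values were below the mean rate of 418 short-lived genes at that time (0.0692%), taken here as an upper estimate of the rate of misread bases. The half-life was 79.6 min in control (63.1 to 120 over replicates) and 109 min in cDKO (84.6 to 144), and the ranges overlapped. In control the 0 min rates had an SD of 0.358 of their mean, above the bound of 0.3 that the study's methods use. The slope differed by 0.57 ± 0.18 log2 per hour (cDKO minus control, unadjusted p = 0.00318, adjusted p = 0.125, edgeR, 0.0997 to 1 over the alternatives), which did not pass. Over all 9207 genes tested 0.13% were called, and over the 4 members tested 0.

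Hdc in cDKO kept most of its conversion rate over the chase. It was read as C at 1.02, 0.631 and 1.10% at 0 min for replicates 1, 2 and 3, at 1.06, 1.34 and 0.863% at 60 min, at 0.870, 1.18 and 0.988% at 180 min and at 0.570, 0.701 and 0.905% at 540 min. The mean was 0.918 ± 0.251% at 0 min and 0.725 ± 0.169% at 540 min (SD, n = 3), while the library-wide rate went from 0.736 ± 0.169 to 0.187 ± 0.024%. Relative to the library-wide rate it was 1.34 ± 0.645 at 0 min and 3.98 ± 1.41 at 540 min. A half-life of 2683 min was fitted, with 688 and 1576 min for replicates 1 and 3. Replicate 2 reached the upper bound of the fit (10000 min). Replicate 3 had the highest rate of Hdc at 0 and 540 min, while its library-wide rate was the lowest (0.542% at 0 min). Conversions were summed over T positions, so whether those of Hdc all came from the label was not tested. The half-life is therefore not resolved. In control the 12 conversions in Hdc all lay in replicate 3 (12 in 423 T positions), and replicates 1 and 2 had 0 in 121 and 338, which is too few reads for a decay.

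Cpa3 in cDKO carried little label from the start. It was read as C at 0.105, 0.414 and 0.126% at 0 min, from 7, 37 and 11 conversions, and at 0.138, 0.141 and 0.110% at 540 min, from 10, 12 and 12. At 0 min this was 0.284 ± 0.186 of the library-wide rate and at 540 min 0.693 ± 0.030 (SD, n = 3). Replicate 2 fell over the chase, replicate 1 ended near where it began, and replicate 3 passed through 0.294 and 0.247% at 60 and 180 min. The half-life of 676 min ran from 171 min in replicate 2 to the bound of 10000 min in the others. Rates this near that of the short-lived genes at 540 min (0.0692%) have little room to fall, so the half-life is not resolved. Prss34 had 0 conversions in 937 T positions. The SD of the Cpa3 rates at 0 min was 0.802 of their mean. Ms4a2 had a half-life of 111 min in control (37.7 to 265 over replicates) and 223 min in cDKO (101 min to the bound), from 65 and 23 conversions. Mcpt8 had 136 min in control (85.0 to 249) and 120 min in cDKO, from 89 and 32 conversions, and its cDKO replicate 3 had 0 conversions at 0 min and gave no value. The SD of the 0 min rates exceeded the bound of 0.3 for Mcpt8 in both genotypes (0.614 and 0.919 of the mean) and for Ms4a2 in cDKO (0.687), as it did for Cpa3.

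To set the members against other transcripts of the same cells, the slope of each gene in cDKO was compared with the library-wide rate, in a test that was added after the values had been seen. Of 8469 genes, 11% had a slope above and 44% below that of the library, and of the 4 members tested 3 were above and 1 below. Fcer1g lay 0.13 ± 0.01 log2 per hour above (SE, adjusted p = 5.97e-10, edgeR), Hdc 0.18 ± 0.03 (adjusted p = 3.89e-05) and Cpa3 0.14 ± 0.06 (adjusted p = 0.0416). Gata2 lay below by -0.26 ± 0.05 (adjusted p = 3.44e-05). The call of Cpa3 was lost without replicate 1 (adjusted p = 0.212), replicate 2 (0.0558) or replicate 3 (0.0789). At 0 min Cpa3 stood at 0.105, 0.414 and 0.126% in replicates 1, 2 and 3. Replicates 1 and 3 thus began near the 0.0692% of the short-lived genes at 540 min. A rate that low has little room to fall, so the slope of Cpa3 does not show slow decay. Without the 540 min libraries the calls of Fcer1g (0.08, adjusted p = 0.0921), Hdc (0.19, adjusted p = 0.143) and Cpa3 (0.10, adjusted p = 0.689) were lost, and Gata2 stood at -0.48 (adjusted p = 2.77e-05).

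**Figure D2:**
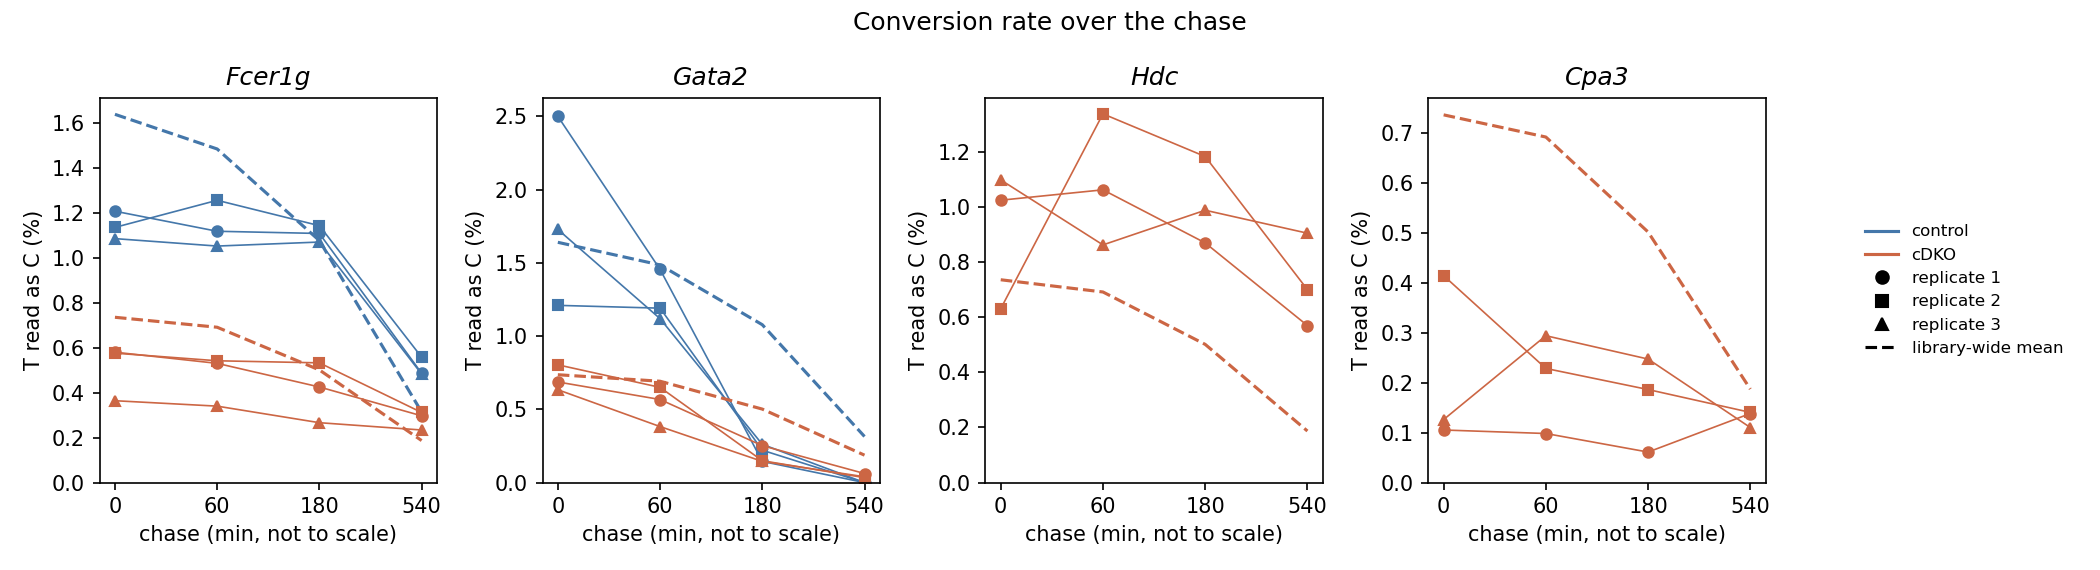
Conversion rate (percent of covered T positions, vertical axis) by chase time (horizontal axis, categories) for the 4 members with the most conversions, with points for libraries, lines for replicate numbers and dashed lines for the mean library-wide rate of the genotype. Gata2 lies below the dashed line at 180 min and Fcer1g above it at 540 min in both genotypes, Hdc lies above it in cDKO at 540 min (0.725% against 0.187%), and Cpa3 lies below it throughout. Control is left out for Hdc and Cpa3, which had few or no control reads.

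The other genes of mast cells and basophils were described by lists, 170 genes without the 10 members. Of these, 134 could be tested between genotypes, and 37 were higher and 34 lower in cDKO (53% called, with a median log2 change of 0.05). Of all genes 30.6% were called, 14.9% higher and 15.7% lower. The lists, here and below, were chosen with earlier results of these data known. Their counts are therefore a description, and nothing is read from this share. The adjusted p of their genes come from the fit over all genes and share this limit. The count fell to 22 higher and 25 lower without control replicate 1, 23 and 25 without control replicate 2 and 23 and 26 without control replicate 3, with 17.8 to 18.3% of all genes called. The median is the same with Meis1, at 0 reads in control, placed at its lower bound of 39.2-fold. Called genes lay on both sides.

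Of the surface receptors, 13 were higher and 4 lower of 27 tested, where 14.9% of all genes were higher and 15.7% lower. Genes with few control reads, such as Cd200r3 (9) and Itga2b (35), passed the filter on low counts only through cDKO. That adds to the higher side, so no direction of the list is read from the count. Higher were Cd200r3, an activating receptor of basophils and mast cells (0.137 ± 0.120 CPM in control and 3.90 ± 1.09 in cDKO, log2 4.80 ± 0.66, adjusted p = 0.00216, edgeR), and Ptger4, a prostaglandin E2 receptor (1.26 ± 0.557 and 33.2 ± 11.3 CPM, adjusted p = 2.77e-04). Itga2b, an integrin also used as a megakaryocyte marker, had 0.532 ± 0.366 and 13.8 ± 4.55 CPM (adjusted p = 5.34e-04). Among the lower were the chemokine receptor Ccr2 (log2 -1.66 ± 0.43, adjusted p = 0.0244), the complement receptor C3ar1 (-1.49 ± 0.28, adjusted p = 0.00786), the mast cell inhibitory receptor Milr1 (-1.16 ± 0.32, adjusted p = 0.0322) and Kit (-0.61 ± 0.13, adjusted p = 0.0111), and for these 4 the adjusted p rose past 0.05 under at least 1 alternative (up to 0.25 for Milr1). Of this list, 5 genes (Enpp3, Itga2, Mrgprb1, Mrgprb2 and Ptgdr2) had 0 reads in every library, and among them Mrgprb2 and Mrgprb1 are receptors of connective tissue mast cells.

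Transcription factors were split, 7 higher and 9 lower of 28. Ikzf2, which encodes Helios, had 7.46 ± 4.56 CPM in control and 470.4 ± 56.1 in cDKO (log2 5.96 ± 0.46, adjusted p = 2.07e-04), and Zfpm1, the GATA cofactor FOG1, had 3.14 ± 0.110 and 30.2 ± 5.49 CPM (log2 3.26 ± 0.17, adjusted p = 5.55e-05). Erg, an ETS factor of stem cells, rose by 2.09 ± 0.18 on the log2 scale (adjusted p = 2.96e-04). Irf8, a factor of monocyte fate, fell by 1.38 ± 0.14 (adjusted p = 5.45e-04), Cebpb by 0.88 ± 0.14 (adjusted p = 0.00327) and Runx1 by 0.87 ± 0.09 (adjusted p = 6.66e-04). Mitf, a mast cell factor of the same list, had 23.95 ± 1.45 CPM in control and 21.7 ± 10.4 in cDKO and was not called. Gata1, which follows Gata2 in several lineages, had 0 reads in control and 1 in cDKO.

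Among the remaining lists, granule matrix and cargo genes were 6 higher and 2 lower of 15, led by Stx3, a syntaxin of granule fusion (0.813 ± 0.284 and 30.8 ± 16.8 CPM, adjusted p = 4.55e-04). Srgn, the proteoglycan core that holds granule proteases, had 3046 ± 152 CPM in control and 2753 ± 365 in cDKO, with overlapping replicates. In the other protease list, 3 of 11 genes could be tested. Ctsc, which activates granule serine proteases, was higher (34.2 ± 3.57 and 281 ± 142 CPM, log2 3.03 ± 0.35, adjusted p = 0.00106), and Ctsg was lower (2981 ± 76.0 and 1590 ± 152 CPM, adjusted p = 1.94e-04). In that list 7 genes had 0 reads in all libraries, among them the mast cell proteases Mcpt1, Mcpt2, Mcpt4 and Tpsab1. FcεRI signalling genes were 7 higher and 10 lower of 40, with Fyn higher (log2 2.75 ± 0.49, adjusted p = 0.00585) and the adaptor Sh2b2 lower (-1.07 ± 0.12, adjusted p = 8.69e-04). Eicosanoid genes were 3 higher and 5 lower of 12, with Pla2g4a, the phospholipase that frees arachidonic acid, higher (0.68 ± 0.10, adjusted p = 0.00261), and Mgst2 (-2.12 ± 0.09, adjusted p = 3.16e-05) and Hpgd (-1.19 ± 0.19, adjusted p = 0.0038) lower. Cytokines were 0 higher and 3 lower of 9, namely Ccl9 (-2.46 ± 0.45, adjusted p = 0.00656), Ccl6 (-1.88 ± 0.40, adjusted p = 0.0113) and Vegfa (-1.03 ± 0.10, adjusted p = 4.66e-04), and the called Ccl6 had an adjusted p of 0.112 with the 60 min libraries alone.

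**Figure D3:**
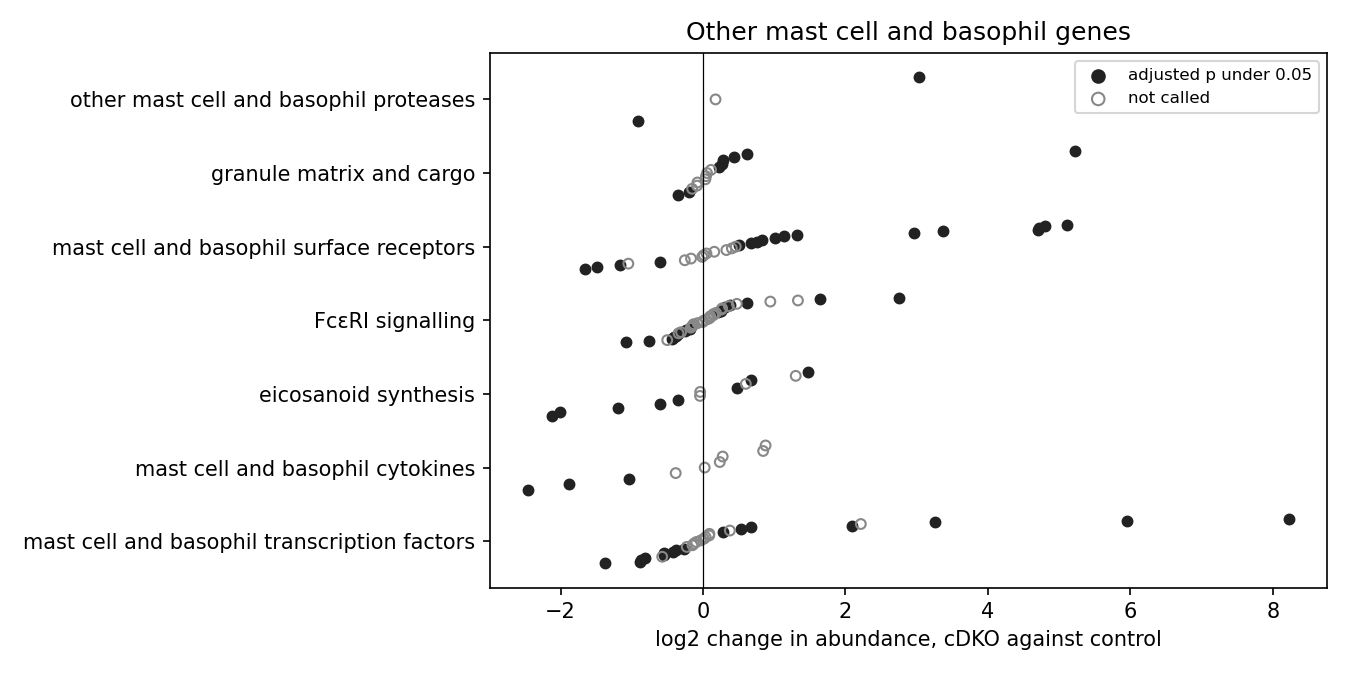
Log2 change in abundance between genotypes (cDKO against control, horizontal axis) of each tested gene, by list (vertical axis), with filled points for an adjusted p under 0.05 and open points for the rest. Called genes lie on both sides of 0 in each list but the cytokines, whose 3 called genes are lower. The transcription factor farthest to the right is Meis1, at 0 reads in control, whose fitted value is not a bound.

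Some markers of other blood cells moved with the genotype as well. Of 8 neutrophil markers tested 6 were lower and 1 higher in cDKO, and of 9 monocyte and macrophage markers 4 were lower and 1 higher. Over all genes 14.9% were higher and 15.7% lower. Of 10 erythroid markers only 2, Hbb-bt and Hba-a2, could be tested, and they were higher. With 38 and 0 control reads, they passed the filter on low counts only through cDKO, so nothing is read from their direction. Klf1, which did not pass, had 55 reads in control and 21 in cDKO. S100a8 had 20.8 ± 3.26 CPM in control and 0.287 ± 0.382 in cDKO, and F13a1 had 172 ± 30.1 and 0.151 ± 0.139. The markers called higher were Adgre1 of the monocyte and macrophage list (23.2 ± 3.66 and 226 ± 47.4 CPM) and Cebpe of the neutrophil list (10.7 ± 2.31 and 33.5 ± 10.8). Hbb-bt, a beta globin, had 0.533 ± 0.673 CPM in control and 1632 ± 327 in cDKO, while the erythroid genes Alas2, Car1, Epor and Slc4a1 had 0 reads in all libraries. The summed neutrophil markers ranged from 7444 to 8431 CPM in control and from 1867 to 3105 in cDKO, and the erythroid ones from 0.372 to 3.07 and from 1307 to 2091. The summed monocyte and macrophage markers overlapped, at 3771 to 4363 CPM in control and 3392 to 4682 in cDKO. Most of that sum was Ly6c2 (3819 ± 142 and 3743 ± 450 CPM), which was not called. Of 2 eosinophil markers tested 1 was higher, Prg3, a granule protein gene with 0.0443 ± 0.0767 CPM in control and 1.43 ± 0.132 in cDKO (adjusted p = 0.00435, edgeR). Prg3 had 3 reads in control and passed the filter on low counts only through cDKO. The summed eosinophil markers ranged from 3.41 to 6.11 CPM in control (median 4.83) and from 4.88 to 12.5 in cDKO (median 9.01), with Epx, Ear1, Ear2, Ear6 and Alox15 at 0 in both genotypes. Most of that sum was Siglecf (4.64 ± 0.160 and 6.42 ± 1.34 CPM), which was not called. Of 7 stem and progenitor markers tested 4 were higher (Hlf, Meis1, Angpt1 and Hoxa9) and 1 lower (Kit), while Mecom and Myct1 had 0 reads in both genotypes. The sum of the list ranged from 2167 to 2965 CPM in control and from 3681 to 7135 in cDKO. Most of it was Hoxa9 (2403 ± 58.2 CPM in control and 4460 ± 615 in cDKO). Hoxa9 and Meis1 were also introduced by retrovirus, and whether their reads came from it was not tested. Hlf, a transcription factor of stem cells, had 0.0955, 0.0443 and 0.0416 CPM in control and 91.6, 29.3 and 250.3 in cDKO for replicates 1, 2 and 3 (log2 change 10.89 ± 1.28, SE, adjusted p = 0.0011, edgeR), with replicate 3 highest and replicate 2 lowest in cDKO, the order of Hdc. Angpt1, a ligand made by progenitors, had 56.1 ± 2.05 and 156.8 ± 42.0 CPM (adjusted p = 0.00111). Mpo varied among the cDKO replicates (192, 9.58 and 1.44 CPM for replicates 1, 2 and 3, against 501, 654 and 578 in control), replicate 3 being lowest for it and highest for Cpa3, Hdc and Gata2. Their part in the levels of the mast cell and basophil genes was not tested.

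**Figure D4:**
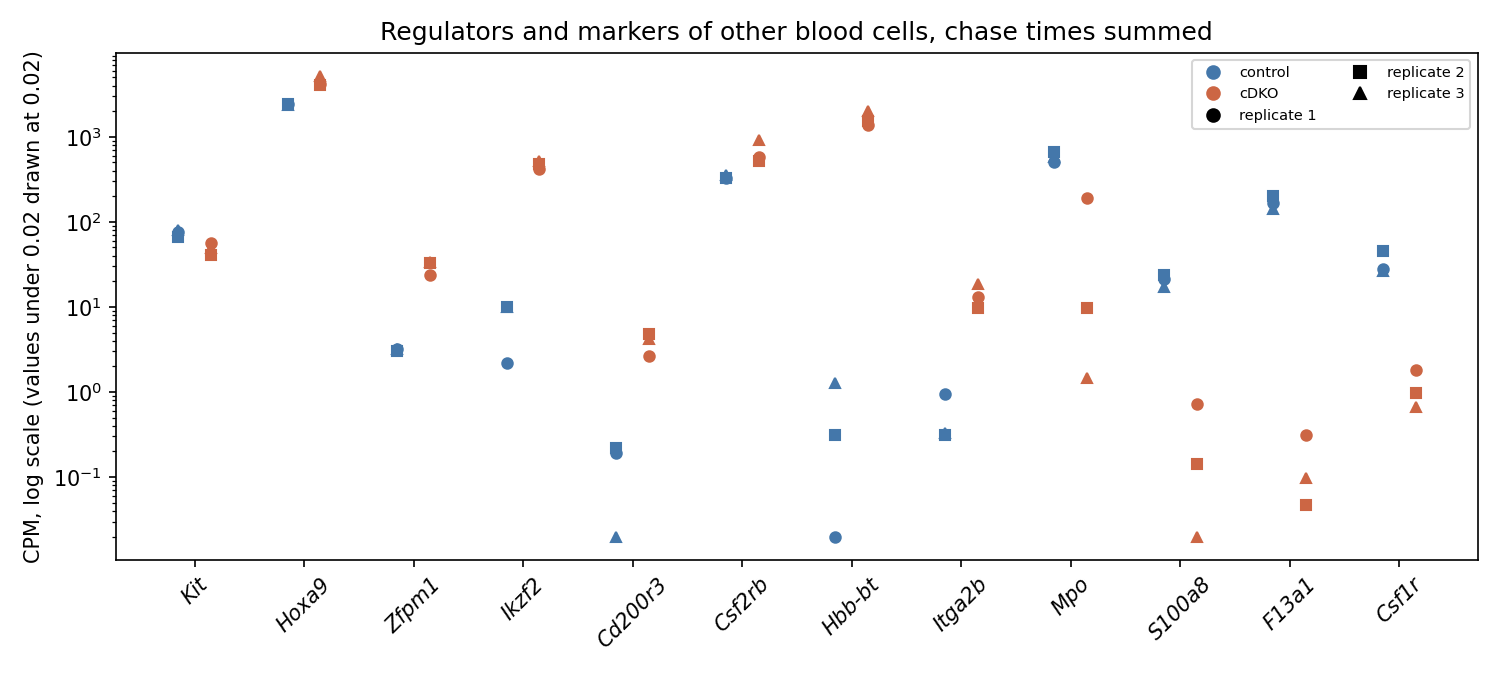
Level (CPM, log axis, chase times summed) of regulators, receptors and markers of other blood cells, with 1 point per replicate and colour for genotype. Ikzf2, Zfpm1, Cd200r3, Csf2rb, Hbb-bt and Itga2b lie higher in all cDKO replicates, and S100a8, F13a1, Csf1r and Mpo lower, with Mpo spread from 1.44 to 192 CPM in cDKO. Values of 0 are drawn at the lower end of the axis. Csf2rb, the shared chain of the IL-3 receptor, had 333 ± 15.0 CPM in control and 672 ± 217 in cDKO.

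The genes whose level over the 12 cDKO libraries was most like that of Cpa3 were Fer (Pearson r = 0.917 on log2 CPM), Ctdspl (0.915), Tmem59 (0.905), Prdx4 (0.898) and Plxnd1 (0.898), among 11203 genes. The 12 points are 3 replicate numbers at 4 times and share their libraries, so the likeness is a description only.

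Over the chase, the other mast cell and basophil genes were called in control for 18 higher and 10 lower of 124 between 540 and 0 min, and for 0 of 128 in cDKO. The shares over all genes were 16.2% in control (8.06% up and 8.18% down) and 0.117% in cDKO. Of 112 tested for decay between genotypes, 0 were called, where 0.13% of all 9207 genes were. Relative to the library-wide rate in cDKO, 13 of 111 had a slope above it and 57 below. Of all 8469 genes, 11% lay above and 44% below. Whether these lists differ from all genes in this was not tested.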

How the data were processed

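The authors ran SlamDunk (version 0.4.3, per the file headers) on 3′-end libraries, mapped to GRCm38 (mm10). The deposited tables give whole-number counts of reads, of conversions and of T coverage per 3′UTR, a conversion rate as a fraction, and CPM that the authors scaled to filtered reads. Only the deposited counts were used here, and rates and CPM were recomputed. Each table held 39419 lines, of which 39091 (99.17%) matched a RefSeq symbol. Of 30432 distinct intervals 29022 were kept, the longest among overlapping intervals of a gene, and summed to 20868 genes.

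Genes were tested with edgeR 4.0.16 (R 4.3.3, TMM, filterByExpr, quasi-likelihood test, Benjamini-Hochberg over all genes, called under 0.05), with DESeq2 1.42.0 as an alternative. Conversion counts were fitted with T coverage (log) in the offset, for genes with at least 100 covered T positions in each library and at least 50 conversions. Half-lives were fitted by least squares and bounded to 10000 min. The scripts were tested on simulated data. The members and lists were chosen with earlier results of these data known; every member is named, and from each other list up to 3 called genes in each direction with a mean of at least 1 CPM. Other genes named (Mitf, Gata1, Srgn, Csf2rb, Mpo, Meis1, Prg3, Ly6c2, Klf1, Siglecf and those at 0), and the markers drawn, were chosen after their values were seen. With 3 replicates, precision is limited by the spread between cultures. In cDKO the replicate numbers appeared to pair the libraries, since all same-number correlations between times were over 0.1 (0.332 to 0.798). In control they did not (-0.057 to 0.191), nor between genotypes. The main fits over the chase and of slopes had no term for the replicate number, and only the alternatives with a replicate block had one.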

Additional observations from a re-analysis of the deposited data

How the results depend on the processing

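The genotype comparison of abundance called 3433 genes, and 2040 to 4036 with a replicate left out (2040, 2070 and 2090 without control replicate 1, 2 or 3). With the libraries of 0, 60, 180 or 540 min alone, it called 1360, 2046, 1915 and 1977 genes. The change over the chase in control called 1660 genes, and 580 to 1198 with a replicate left out (1010 without control replicate 1, 580 without 3). In cDKO it called 12 genes, 123 with DESeq2, 128 with the replicate block and 0 to 2 with a replicate left out. The difference between genotypes in that change called 0 genes, 6 with DESeq2, 7 with a replicate block within each genotype (chosen after seeing the data) and 0 to 1 with a replicate left out. The decay by genotype called 12 genes, 23 with the library-wide rate in the offset (8 slopes higher and 15 lower in cDKO, where all 12 were higher), 1 without the 540 min libraries, 59 with the replicate block and 3 to 30 with a replicate left out. The added slope in cDKO called 4655 genes, and 2426 without the 540 min libraries. The cause of these moves was not tested. The replicate block changed no call of a member.

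Some half-lives moved by more than the spread between replicates. That of Fcer1g was 4377 min in control without the 540 min libraries and 509 min in cDKO after subtracting the rate of short-lived genes. That of Hdc reached the bound of 10000 min without the 540 min libraries, as it did without cDKO replicate 1, and Cpa3 did without cDKO replicate 2. That of Mcpt8 was 222 min without control replicate 1 and 467 min without cDKO replicate 2. Between genotypes, the log2 change of Ms4a2, not called, ran from -0.66 to 0.10 over the alternatives, and the other 5 of the 6 members tested kept their sign. Nothing is read from this count, since the members were chosen on this contrast.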
